A study of Mus musculus with 12 samples.

Results

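The genes described here were 49 chemokine, chemokine receptor and interleukin receptor genes out of 10655 in the table of normalised read counts. They were chosen by symbol, as all entries that begin with Ccl, Ccr, Cxcl, Cxcr, Cx3c, Ackr or an interleukin number followed by r. This rule was set with earlier results of these data known. Of 53 matching symbols, 4 (Ccl2, Ccl5, Il1r2 and Il2rb) were left aside by the same rule. The 49 comprised 19 chemokine ligands, 11 chemokine receptors and 19 genes with an interleukin receptor symbol, of which Il1rn encodes a secreted antagonist and not a receptor. Each member had a value in the table, and no further filter on low values was applied in the main fit. The table itself held no gene with a mean below 15.8 normalised counts or with reads in fewer than 9 libraries. Lower genes of these families may therefore be absent from it.

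RNA came from mouse aortic endothelial cells, the cells that line the main artery, and was read by SMART-seq, a full-length RNA sequencing method. The 12 libraries formed 4 groups of 3 by the diets named in their titles: CD_CD (CD offspring of CD mothers), WD_CD (CD offspring of WD mothers), CD_WD (WD offspring of CD mothers) and WD_WD (WD offspring of WD mothers). The mother's diet was read from the first place and the offspring's from the second, after the order in the series text. CD and WD are not spelled out in the labels. The title of the series names a high-fat diet of the mother and atherosclerosis of the offspring. Both groups of WD offspring had received WD again for 4 weeks, so the diet and this feeding period go together. The labels are silent on genotype, strain, sex, age, cell sorting and batch, and a difference in preparation between groups cannot be told apart from a difference in diet. Nothing states that the replicates were separate animals, and the p-values then measure no more than the spread of these samples, which could be technical.

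Chemokines are small secreted proteins that bind G protein-coupled receptors on leukocytes and direct their movement. Endothelial cells present chemokines on their luminal surface, where rolling leukocytes meet them, and macrophages of the arterial wall secrete many of the same proteins. Atypical receptors such as ACKR3 bind chemokines without classical G protein signalling and take them up. Interleukin receptors are built from chains, some of which are shared: the common gamma chain, encoded by Il2rg, pairs with chains for several interleukins. Such chains signal largely through Janus kinases and STAT factors, whereas receptors of the interleukin-1 and interleukin-17 families use adaptor proteins that lead to NF-kappa B.

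The libraries held between 4074413 and 19670570 reads in the listed genes, and 1 read corresponded to 0.347 to 3.96 normalised counts. Markers of the labelled cell type were present: all 12 endothelial genes listed were in the table, and 1 of them, Robo4, was at 0 in 1 WD_WD library. Their summed level was 64620 to 85236 normalised counts in CD_CD, 52617 to 74575 in WD_CD, 2051 to 33089 in CD_WD and 10512 to 17665 in WD_WD. The 8 pan-leukocyte genes summed to 3486 to 7429 in CD_CD, 3765 to 16982 in WD_CD, 54959 to 538809 in CD_WD and 69081 to 84129 in WD_WD. In the comparison of WD with CD offspring averaged over both mothers' diets, 8 of 8 pan-leukocyte, 10 of 15 macrophage and monocyte, 4 of 4 B cell, 4 of 5 neutrophil and 5 of 9 T and NK cell genes rose, while 11 of 12 endothelial and 6 of 6 smooth muscle genes fell. Of 6 dendritic cell genes 2 rose, of 7 fibroblast genes 2 fell, and of 4 mast cell genes none passed the test. The median log2 fold change was 3.76 over the pan-leukocyte genes, -2.79 over the endothelial genes and -2.82 over the smooth muscle genes. CD_WD replicate 1 had the highest B cell sum of all libraries (335294, against 4210 and 16691 in the other CD_WD libraries) and the lowest macrophage and monocyte sum of the WD offspring (42398, against 389188 to 1053850). It also had the highest T and NK cell sum (75328, against 3380 to 21464 in the other WD offspring) and pan-leukocyte sum (538809). It had the lowest endothelial (2051), smooth muscle (1039) and fibroblast (2218) sums of all libraries. It therefore stood apart, as did WD_CD replicate 3, which had the most genes without reads (463).

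Many of the chemokine and interleukin receptor genes were higher in WD offspring, a few were lower, and the others did not pass the test. In WD against CD offspring averaged over both mothers' diets, 26 of the 49 rose and 5 fell (limma, Benjamini-Hochberg adjusted p under 0.05), where 20.1% of all genes rose and 17.6% fell. The median log2 fold change was 2.21 over the 49 genes and -0.02 over all genes. With CD mothers, 17 rose (9.46% of all genes) and 1 fell (5.55%), at a median of 1.70 against -0.02 over all genes. With WD mothers, 22 rose (14.2% of all genes) and 3 fell (10.2%), at a median of 2.2 against 0.01. In 43 of the 49 genes the sign was the same with either mother's diet, and the share over all genes is not given here. Because the libraries are bulk RNA, fewer cells of a type and less RNA per cell cannot be told apart in any of these values.

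The 6 libraries of WD offspring lay entirely above the 6 of CD offspring for 18 members (12.6% of all genes) and entirely below them for 3, Ackr3, Il17rc and Il20rb (9.69%). Among CD mothers alone, 24 members did not overlap and were higher (21.9% of all genes) and 4 were lower (21.6%). Among WD mothers alone, 25 were higher (21.9%) and 6 lower (19.4%). Per kilobase of exon, the highest medians in WD offspring were those of Ccl4 (66685 normalised counts per kb), Ccl7 (20061), Ccl6 (17403) and Cxcl2 (13893), and in CD offspring those of Ccl6 (1517), Ackr3 (999.7) and Ccl8 (881).

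**Figure D1:**
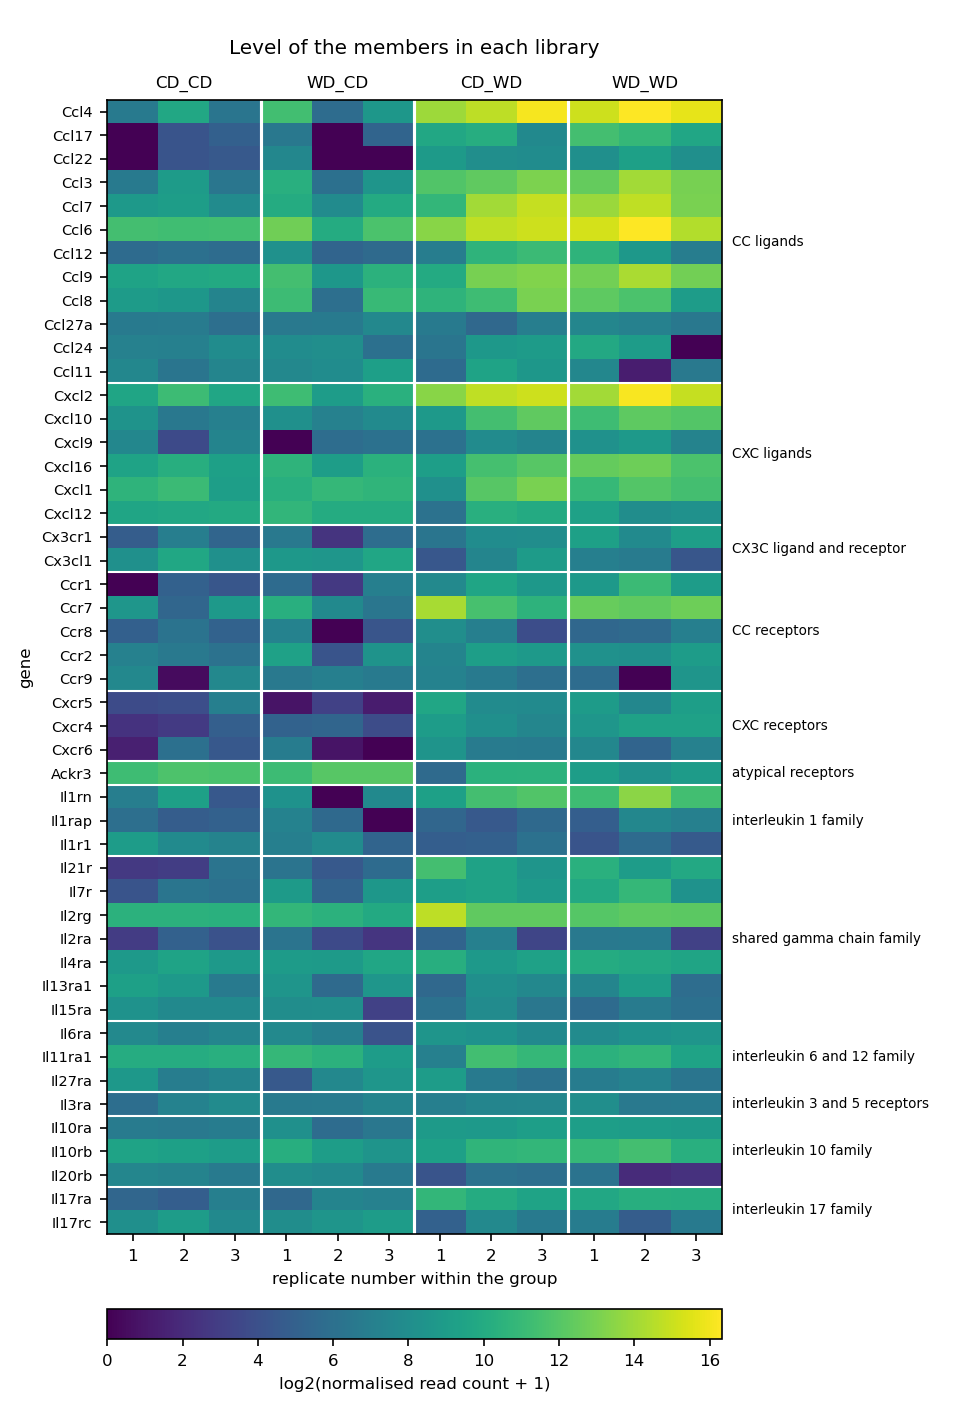
Level of the members described (rows, ordered by role) in each of the 12 libraries (columns, replicate numbers within 4 groups), as log2 of the normalised read count plus 1. Rows such as Ccl4, Ccl17, Cxcl2 and Cxcr4 are darker in the 6 CD offspring libraries than in the 6 WD offspring libraries, and Ackr3 is the reverse.

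The same 15 genes rose with either mother's diet: Ccl3, Ccl4, Ccl6, Ccl7, Ccl17, Cxcl2, Cxcl10, Ccr1, Ccr7, Cxcr4, Cxcr5, Il2rg, Il21r, Il10ra and Il17ra. They made up 88.2% of the calls with CD mothers and 68.2% of those with WD mothers, and the 2 comparisons share no library. Ccl12 and Il7r passed only with CD mothers. Among those that passed only with WD mothers were Ccl9, Ccl22, Cxcl16, Cx3cr1, Il1rn and Il10rb, but no member had a difference between the 2 effects that passed its own test. Ccl8, Cxcr6 and, as a fall, Cx3cl1 passed in the average alone. In none of these 3 comparisons did 18 members pass: Ccl11, Ccl24, Ccl27a, Ccr2, Ccr8, Ccr9, Cxcl1, Cxcl9, Cxcl12, Il1rap, Il2ra, Il3ra, Il4ra, Il6ra, Il11ra1, Il13ra1, Il15ra and Il27ra.

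**Figure D2:**
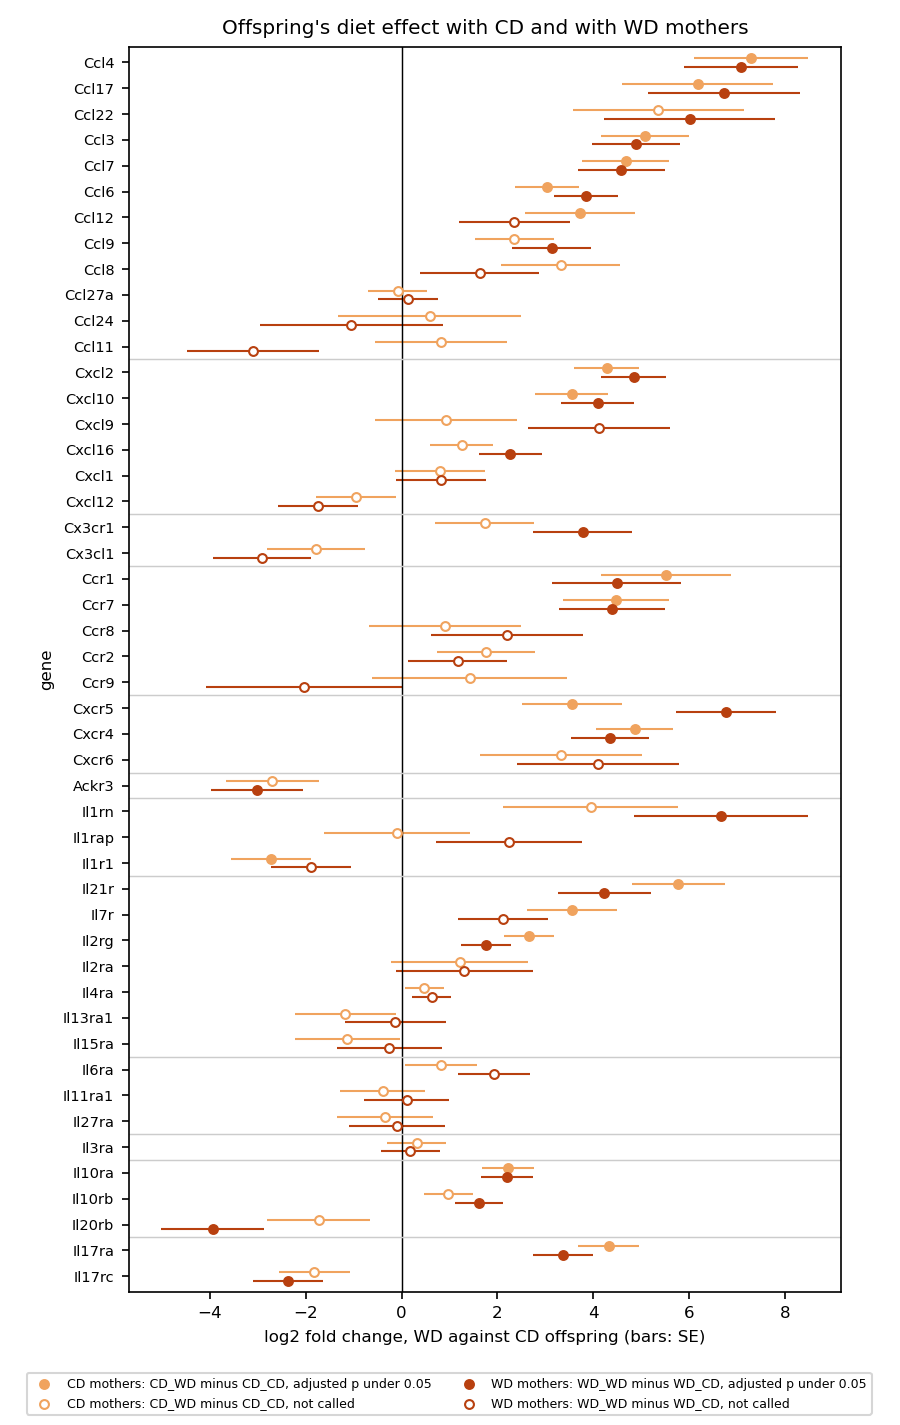
Log2 fold change of WD against CD offspring (horizontal axis) for the members described, with CD mothers in light orange and WD mothers in dark orange. Bars are standard errors from limma, and filled points have an adjusted p under 0.05. Most filled points lie to the right of 0, and most genes have the same sign in both.

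How many members passed depended on scaling and on single libraries. The authors' size factors set the typical gene of every library level. Scaling by total reads instead lowered the median log2 fold change of all genes to -1.40 in the average, and 16 members then rose (6.03% of all genes) and 12 fell (56.8%). The corresponding counts were 11 (2.73%) and 6 (38.3%) with CD mothers, and 13 (4.13%) and 7 (40.1%) with WD mothers. TMM scaling moved the median of all genes to between -0.11 and -0.12. Under total-read scaling, the average comparison lost, among others, the calls of Ccl8, Ccl9, Ccl12, Cxcl16, Cx3cr1, Cxcr6, Il7r and Il10ra, and Il10rb changed sign. Leaving out CD_CD replicate 1 lowered the rises with CD mothers from 17 to 11, and leaving out WD_CD replicate 2 or WD_WD replicate 2 lowered those with WD mothers from 22 to 14. The shares of all genes without these libraries are not given here. Of the 17 rises, 10 passed whichever of the 6 libraries was left out, and so did 12 of the 22 and, over 12 libraries, 23 of the 26 rises and 4 of the 5 falls in the average. The gene by gene results that follow therefore use the average of 6 against 6 libraries.

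Among the 12 CC ligands, 9 rose in WD offspring and none fell in the average, at a median log2 fold change of 3.24. Ccl4 and Ccl3 encode MIP-1 beta and MIP-1 alpha, chemokines of activated macrophages, and CCL3 binds CCR1. Normalised counts of Ccl4 were 102, 887 and 79.9 (CD_CD), 2669.6, 53.4 and 393 (WD_CD), 15881, 26525 and 68482 (CD_WD) and 34199, 79069.9 and 53825 (WD_WD). Every library of WD offspring exceeded every library of CD offspring, and the log2 fold change was 7.19 ± 0.84 (SE; limma adjusted p = 6.79e-05). For Ccl3 the counts were 103, 497 and 83.6 (CD_CD), 1228, 65.3 and 358 (WD_CD), 3765, 5162 and 8730 (CD_WD) and 5705, 16769 and 8042 (WD_WD), again without overlap, and the log2 fold change was 4.99 ± 0.65 (SE; limma adjusted p = 0.000121). The 2 genes lie 13.2 kb apart on chromosome 11 but did not move in proportion. The ratio of Ccl4 to Ccl3 was 0.82 to 2.17 in the CD and 4.22 to 7.84 in the WD offspring. Of the members' reads, Ccl4 alone held 0.303% to 6.87% in the CD and 15% to 32.1% in the WD offspring.

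Ccl7, Ccl12 and Ccl8 belong to the monocyte chemoattractant proteins, which act on CCR2 and related receptors. They lie in 1 stretch of chromosome 11 (chr11:82045712-82116799, GRCm38) that also holds Ccl11. Ccl7 had normalised counts of 429, 551 and 232 (CD_CD), 1060.1, 234 and 986 (WD_CD), 1787, 17099 and 30564 (CD_WD) and 15039.5, 27415 and 8335 (WD_WD). The lowest WD offspring value, in CD_WD replicate 1, was still above all CD offspring, and the log2 fold change was 4.64 ± 0.64 (SE; limma adjusted p = 0.000189). Ccl12 stood at 51.7, 63.8 and 53.6 (CD_CD), 311, 36.7 and 48.8 (WD_CD), 122, 1550.4 and 2255 (CD_WD) and 1562, 420.1 and 119 (WD_WD). Its groups overlapped, with WD_CD replicate 1 above CD_WD replicate 1 and WD_WD replicate 3, and the log2 fold change was 3.04 ± 0.82 (SE; limma adjusted p = 0.0114). Ccl8 was measured at 504, 396 and 165 (CD_CD), 2315, 60.6 and 2015 (WD_CD), 1595, 2429 and 8569.9 (CD_WD) and 4849.6, 3351 and 523 (WD_WD). It was high in 2 of the 3 WD_CD libraries and low in WD_WD replicate 3, and its log2 fold change of 2.48 ± 0.88 (SE; limma adjusted p = 0.041) passed the threshold narrowly. That call was lost on leaving out any CD_CD library, WD_CD replicate 2, CD_WD replicate 2 or 3, or WD_WD replicate 1 or 2, at adjusted p between 0.0560 and 0.0928. Ccl11, or eotaxin, an eosinophil attractant, was at 188, 79.3 and 169.6 (CD_CD), 198, 243 and 580.4 (WD_CD), 50.7, 695 and 393 (CD_WD) and 185, 1.52 and 95 (WD_WD). Its lowest value was in WD_WD replicate 2, and the log2 fold change of -1.14 ± 0.97 (SE; limma adjusted p = 0.377) did not pass, although under total-read scaling it did (-2.50, adjusted p = 0.0484).

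Ccl6 and Ccl9 are rodent CC chemokines of myeloid cells that signal mainly through CCR1. They form a stretch with Ccl3 and Ccl4 on the same chromosome (chr11:83572919-83664683, GRCm38). Ccl6 counts were 2754, 2550.5 and 2693 (CD_CD), 6929, 1038 and 3267 (WD_CD), 10856, 28186 and 34289.8 (CD_WD) and 38622, 81719 and 22506 (WD_WD). The groups of offspring did not overlap, and the log2 fold change was 3.45 ± 0.48 (SE; limma adjusted p = 0.000186). Ccl9 gave 713, 863 and 967 (CD_CD), 2782, 396 and 1458 (WD_CD), 1017, 8033 and 9784 (CD_WD) and 7444, 19608 and 7448 (WD_WD). Only CD_WD replicate 1 lay among the CD offspring, below WD_CD replicates 1 and 3, and the log2 fold change was 2.74 ± 0.59 (SE; limma adjusted p = 0.00322).

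Ccl17 and Ccl22 encode the CCR4 ligands made by dendritic cells and some macrophages. Ccl17 was at 0 in CD_CD replicate 1 and WD_CD replicate 2 and was counted at 0, 17.6 and 30.4 (CD_CD), 90.4, 0 and 36.8 (WD_CD), 882, 1172 and 213 (CD_WD) and 2751, 1903 and 799.8 (WD_WD). The values of WD offspring were all higher, and the log2 fold change was 6.46 ± 1.12 (SE; limma adjusted p = 0.000865). For Ccl22 the counts were 0, 17.6 and 22.7 (CD_CD), 185, 0 and 0 (WD_CD), 464, 266 and 246 (CD_WD) and 283, 625 and 281 (WD_WD). With 3 libraries at 0 in CD offspring, its fitted fold depends on the pseudocount. The log2 fold change was 5.69 ± 1.27 (SE; limma adjusted p = 0.00411), and edgeR on the reads recovered from the values gave an adjusted p of 0.0518. The remaining CC ligands did not pass. Ccl24, or eotaxin-2, ranged from 64.2 to 265 in CD offspring and from 0 to 919.6 in WD offspring. Ccl27a, an epithelial chemokine, ranged from 61.7 to 193 and from 43.9 to 182, and its exons overlap Il11ra1 and have near-identical copies elsewhere, so its counts are uncertain.

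Of the 6 CXC ligands, Cxcl2, Cxcl10 and Cxcl16 rose and none fell in the average. The upstream sequences of Cxcl1, Cxcl2, Cxcl10 and Cxcl9 are shown because they form neighbouring pairs on chromosome 5, of which the ratio of Cxcl2 to Cxcl1 did not overlap between the offspring diets and that of Cxcl10 to Cxcl9 did. RefSeq promoter windows (GRCm38.p6) were matched for 37 of the 49 members, as 44 windows of 300 bases. Each sequence printed is the 250 bases before the annotated start, 5′ to 3′ on the gene's strand. In Cxcl1 and Cxcl2 the capitals mark a stretch that holds the kappa B letters (GGGA, any 2 bases, then TTCC). In Cxcl10 they mark the same letters and, farther upstream, the letters of an interferon-stimulated response element (GAAA, any 2 bases, then GAAA). Cxcl9 has no capitals since neither was found there.
Cxcl1, chr5:90890995-90891244, + strand: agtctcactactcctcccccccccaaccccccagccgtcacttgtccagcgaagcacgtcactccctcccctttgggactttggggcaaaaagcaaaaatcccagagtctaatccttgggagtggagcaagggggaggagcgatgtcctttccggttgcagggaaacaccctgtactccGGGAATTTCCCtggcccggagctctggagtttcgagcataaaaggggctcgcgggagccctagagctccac
Cxcl2, chr5:90903649-90903898, + strand: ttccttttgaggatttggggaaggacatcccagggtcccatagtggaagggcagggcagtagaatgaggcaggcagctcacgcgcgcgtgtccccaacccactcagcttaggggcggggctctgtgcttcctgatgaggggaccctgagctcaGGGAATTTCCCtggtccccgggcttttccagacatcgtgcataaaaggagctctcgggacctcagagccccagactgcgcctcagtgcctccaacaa
Cxcl10, chr5:92348890-92349139, - strand: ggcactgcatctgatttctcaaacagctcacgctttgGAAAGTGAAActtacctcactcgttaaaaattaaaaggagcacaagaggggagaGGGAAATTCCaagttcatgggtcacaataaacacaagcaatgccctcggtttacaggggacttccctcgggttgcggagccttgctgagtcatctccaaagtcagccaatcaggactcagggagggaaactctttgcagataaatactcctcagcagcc
Cxcl9, chr5:92328080-92328329, - strand: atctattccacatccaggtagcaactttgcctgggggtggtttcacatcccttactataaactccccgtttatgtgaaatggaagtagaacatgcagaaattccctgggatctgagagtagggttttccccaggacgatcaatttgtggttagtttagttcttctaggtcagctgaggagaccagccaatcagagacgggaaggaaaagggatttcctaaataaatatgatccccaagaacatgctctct

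The kappa B letters, searched on both strands, were found in 1.47% of 32851 promoter windows and, among the members, in Cxcl1, Cxcl2 and Cxcl10. The interferon-stimulated letters were in 3.44% of all windows and in Cxcl10 and Il1rap. The AP-1 letters TGANTCA were in 7.81% of all windows and in those of 6 members (Ccl9, Ccl27a, Cxcl9, Cxcl10, Il1rn and Il15ra), the TATA letters TATAAA in 13.6% and in 8 (Ccl8, Ccl9, Ccl12, Cxcl9, Cx3cl1, Cxcr4, Ackr3 and Il1rn), and the PU.1 letters GAGGAAGT in 3.20% and in none of the members' windows. Motifs of this length can overlap one another. A match describes the letters only, and a missing match says only that they are not in this window.

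Cxcl2 and Cxcl1 encode closely related neutrophil chemoattractants that bind CXCR2, and their genes are 10.8 kb apart. Cxcl2 had normalised counts of 777, 2280.4 and 791 (CD_CD), 2386, 527 and 1321 (WD_CD), 11023, 27161 and 34410.3 (CD_WD) and 17382, 74648 and 30302 (WD_WD). All WD offspring were higher than all CD offspring, and the log2 fold change was 4.56 ± 0.49 (SE; limma adjusted p = 3.88e-05). Cxcl1 was found at 1549, 2219.9 and 574 (CD_CD), 1268, 1899.8 and 1634 (WD_CD), 289, 4254 and 8469 (CD_WD) and 1983, 3984 and 2779.5 (WD_WD). The offspring groups overlapped, with CD_WD replicate 1 the lowest of all 12 libraries, and the log2 fold change of 0.81 ± 0.67 (SE; limma adjusted p = 0.358) did not pass. Without CD_WD replicate 1 it passed (1.54, adjusted p = 0.00355), and under total-read scaling its sign turned (-0.60). The 2 genes share the letters GGGAATTTCCC upstream, while the ratio of Cxcl2 to Cxcl1 was 0.278 to 1.88 in the CD and 4.06 to 38 in the WD offspring.

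Cxcl10 and Cxcl9 encode interferon-induced ligands of CXCR3, a receptor of activated T cells, and lie 18.6 kb apart. Cxcl10 was counted at 327, 91.1 and 134 (CD_CD), 286, 141 and 225 (WD_CD), 449, 2747 and 5276 (CD_WD) and 2391, 4874 and 3908 (WD_WD). The offspring groups did not overlap, and the log2 fold change was 3.82 ± 0.53 (SE; limma adjusted p = 0.000203). Cxcl9 was counted at 190.1, 11.4 and 163 (CD_CD), 0, 57 and 67.5 (WD_CD), 68.5, 234 and 164 (CD_WD) and 311, 431 and 154 (WD_WD). Its groups overlapped and the log2 fold change was 2.53 ± 1.05 (SE; limma adjusted p = 0.0742), which did not pass. It passed without WD_CD replicate 3 (adjusted p = 0.0432), and its value of 0 was in WD_CD replicate 1. The exons of Cxcl10 overlap Art3, and whether the counting used strand is not known.

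Cxcl16 encodes a membrane-bound chemokine and scavenger receptor for oxidised lipoprotein, and its receptor is encoded by Cxcr6. Cxcl16 stood at 715, 1175 and 626 (CD_CD), 1549, 551 and 1366 (WD_CD), 563, 2860.3 and 4418 (CD_WD) and 5643, 6857 and 3373 (WD_WD). CD_WD replicate 1 was among the lowest of all libraries, the other 5 WD offspring were above all CD offspring, and the log2 fold change was 1.76 ± 0.47 (SE; limma adjusted p = 0.0106). Part of its exons overlap Zmynd15. Cxcr6 had 1.73, 63.8 and 21.9 (CD_CD), 114, 0.797 and 0 (WD_CD), 355, 109 and 104 (CD_WD) and 185, 37.9 and 143 (WD_WD). It overlapped between the offspring diets, with WD_CD replicate 1 above 3 of the WD offspring libraries, and its log2 fold change was 3.71 ± 1.20 (SE; limma adjusted p = 0.0275). That call was lost without CD_CD replicate 1, WD_CD replicate 2 or 3, CD_WD replicate 1 or WD_WD replicate 1 or 3 (adjusted p between 0.0550 and 0.0672), and in edgeR (0.202).

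Cxcl12, the chemokine that keeps CXCR4-bearing cells in place, gave 786, 865 and 973 (CD_CD), 1701, 1072 and 1041 (WD_CD), 71, 1245 and 1018 (CD_WD) and 634, 258 and 309 (WD_WD). The median was 1007 in CD offspring and 472 in WD offspring, and the log2 fold change of -1.35 ± 0.59 (SE; limma adjusted p = 0.087) did not pass. Leaving out CD_WD replicate 2 or 3 brought it past the threshold (-1.71, adjusted p = 0.0342, and -1.64, adjusted p = 0.0454), as did total-read scaling (-2.76, adjusted p = 0.00487).

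CX3CL1, or fractalkine, is a membrane-anchored chemokine of endothelial cells, and CX3CR1 is its receptor on monocytes and macrophages. Cx3cl1 was at 293, 831 and 295 (CD_CD), 417, 378 and 806 (WD_CD), 20.3, 167 and 488 (CD_WD) and 128, 111 and 19.8 (WD_WD). The highest WD offspring library, CD_WD replicate 3, lay within the CD offspring, and Cx3cl1 fell with a log2 fold change of -2.35 ± 0.72 (SE; limma adjusted p = 0.0214). Without CD_CD replicate 2 the value was -2.10 and did not pass (limma adjusted p = 0.0577), nor did it without the 2 libraries that stood apart (-1.55, limma adjusted p = 0.0577). The median over the endothelial markers was -2.79 in the average, and whether Cx3cl1 changed within a cell type was not tested. Cx3cr1 was at 26.7, 127 and 38.5 (CD_CD), 97.6, 4.38 and 56.2 (WD_CD), 81.1, 245 and 253 (CD_WD) and 629, 221 and 566 (WD_WD), with overlap of CD_WD replicate 1, and rose with 2.76 ± 0.73 (SE; limma adjusted p = 0.0104). Cx3cl1 lies on chromosome 8 between Ccl22, 20.3 kb away, and Ccl17, 28 kb away, both of which rose (chr8:94745590-94812036, GRCm38). The ratio of Ccl17 to Cx3cl1, with 1 added to each, was 0.00264 to 0.219 in the CD and 0.439 to 41.5 in the WD offspring, without overlap. Its lowest value was in WD_CD replicate 2, where Ccl17 had no reads and the added 1 set the ratio.

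**Figure D3:**
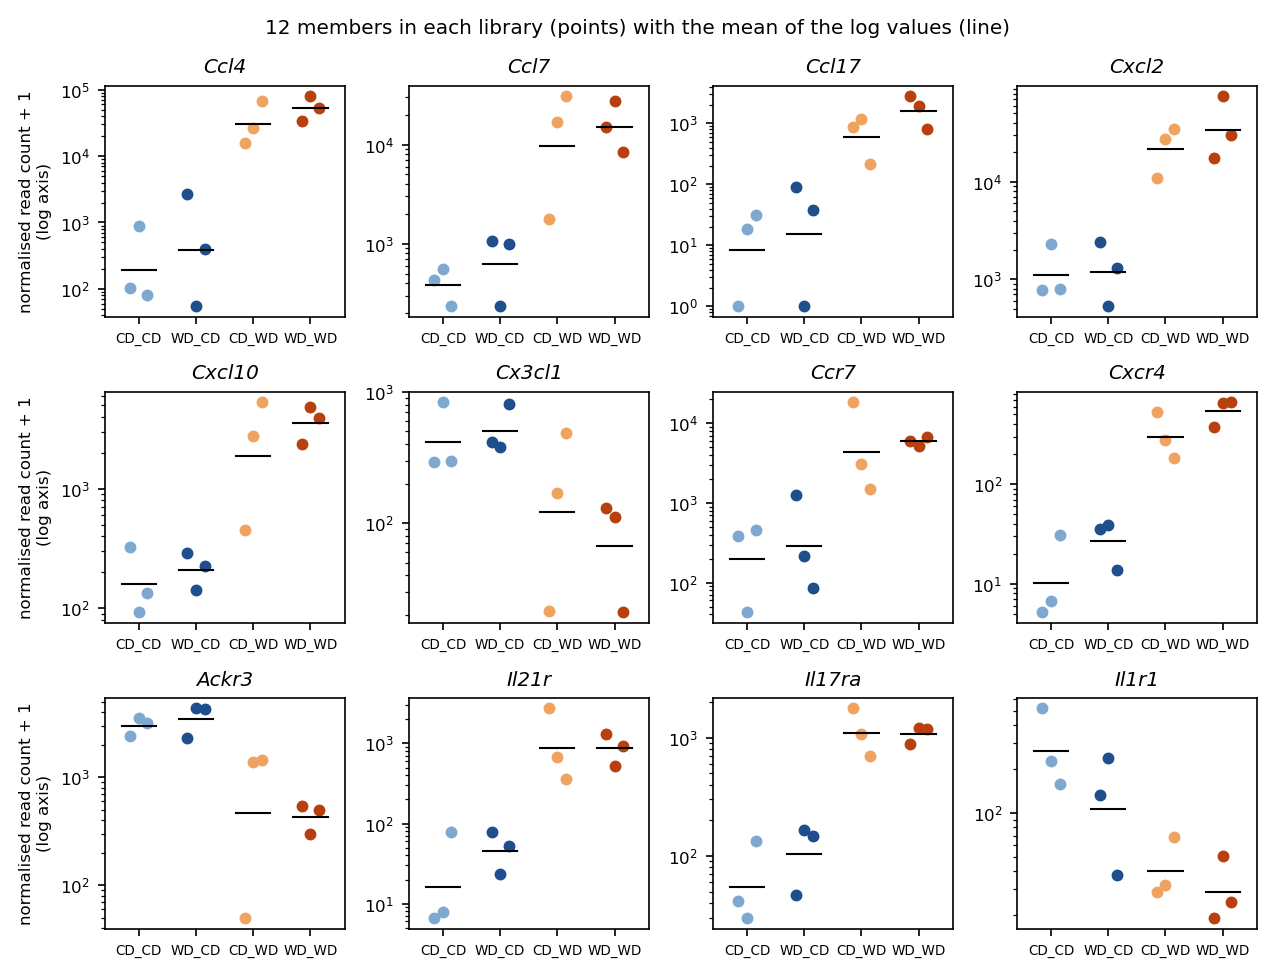
Normalised read counts plus 1 (log scale) of selected genes in the 12 libraries, 1 point per library in 4 groups of 3. Ccl4, Cxcl2 and Cxcr4 have every WD offspring library above every CD offspring library, and Ackr3 has the reverse.

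Of the CC receptors described here, Ccr1 and Ccr7 rose and none fell in the average. CCR1 is a receptor for CCL3, CCL6, CCL7 and CCL9 on myeloid cells. Ccr1 was at 0, 32.7 and 19.9 (CD_CD), 50.5, 5.58 and 132 (WD_CD), 205, 776 and 422 (CD_WD) and 449.5, 2219 and 511 (WD_WD). WD offspring were higher in each library, and the log2 fold change was 5.0 ± 0.96 (SE; limma adjusted p = 0.00162). CCR7 guides dendritic cells, naive T cells and B cells to lymph nodes. Ccr7 had 388, 41.3 and 460.1 (CD_CD), 1257, 213 and 84.3 (WD_CD), 18224, 3057 and 1499 (CD_WD) and 5957, 5217 and 6735 (WD_WD). The highest level was in CD_WD replicate 1, the library with the highest B cell and T and NK cell marker sums. The lowest WD offspring value exceeded the highest CD offspring value. Ccr7 rose with a log2 fold change of 4.43 ± 0.78 (SE; limma adjusted p = 0.000964).

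Ccr2, the monocyte receptor of the CCL7 group, had 146, 96.4 and 69.4 (CD_CD), 637, 17.5 and 335 (WD_CD), 162, 563 and 430.4 (CD_WD) and 308, 279 and 523 (WD_WD). Its highest library was WD_CD replicate 1 and the log2 fold change of 1.47 ± 0.73 (SE; limma adjusted p = 0.128) did not pass, although it did without that library (1.97, adjusted p = 0.0389). Ccr8, a receptor of skin-homing and regulatory T cells, ranged from 0 to 149.8 in CD offspring and from 13.8 to 266 in WD offspring. Ccr9, a receptor of gut-homing lymphocytes, ranged from 0.409 to 192 and from 0 to 356, and neither passed.

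CXCR4 and ACKR3 both bind CXCL12, the first as a signalling receptor and the second as an atypical receptor that takes CXCL12 up, and they moved in opposite directions. Cxcr4 was at 4.16, 5.72 and 30 (CD_CD), 34.4, 38.3 and 12.7 (WD_CD), 525, 274 and 182 (CD_WD) and 375, 648 and 657 (WD_WD). The highest CD offspring value was below the lowest WD offspring value, and the log2 fold change was 4.61 ± 0.57 (SE; limma adjusted p = 9.72e-05). Ackr3 was at 2412, 3543 and 3151 (CD_CD), 2305, 4310.4 and 4242 (WD_CD), 48.2, 1391 and 1448 (CD_WD) and 537, 299 and 491 (WD_WD). Each CD offspring library was above each WD offspring library, and CD_WD replicate 1 was the lowest. The log2 fold change was -2.86 ± 0.68 (SE; limma adjusted p = 0.00623). In the same comparison the median was -2.79 over the endothelial and 3.76 over the pan-leukocyte markers. Whether Cxcr4 or Ackr3 changed within a cell type was not tested. Per kilobase of exon, the median of Ackr3 was 999.7 normalised counts in CD offspring and 153 in WD offspring. Cxcr4 lies at chr1:128588199-128592293, - strand, and Ackr3 at chr1:90203980-90216751, + strand (GRCm38). The ratio of Cxcr4 to Ackr3 counts had a median of 0.00617 in CD offspring (0.0019 to 0.0153) and 1.02 in WD offspring (0.127 to 10.7).

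Cxcr5 encodes the CXCL13 receptor that brings B cells into follicles. Its normalised counts were 12.1, 14.3 and 129 (CD_CD), 0.848, 7.97 and 1.34 (WD_CD), 811, 232 and 224 (CD_WD) and 485, 187 and 562 (WD_WD). The highest value was again in CD_WD replicate 1, CD_CD replicate 3 was high among the CD offspring, and the groups of offspring did not overlap. The log2 fold change was 5.17 ± 0.74 (SE; limma adjusted p = 0.000239). It was 3.56 ± 1.05 with CD mothers and 6.78 ± 1.05 with WD mothers. The exons of Cxcr5 overlap Bcl9l. How far the B cell and T and NK cell RNA of CD_WD replicate 1 entered the values of Cxcr5, Ccr7, Il2rg and Il21r was not tested. All 4 also rose in the average without that library. The libraries that remain differed in the same markers. Their B cell sums were 4210 to 16691 in WD and 102 to 3391 in CD offspring. Their T and NK cell sums were 3380 to 21464 and 231 to 2629.

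The genes with interleukin receptor symbols were split more evenly than the ligands: 7 of 19 rose, 3 fell and 9 did not pass in the average, against 12, 1 and 6 of the 19 ligands and 7, 1 and 3 of the 11 chemokine receptors. The difference between these shares was not tested.

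In the interleukin 1 family, Il1rn rose and Il1r1 fell. IL1R1 is the signalling receptor of interleukin 1, and Il1rn encodes the antagonist that occupies it. Il1r1 lies at chr1:40225080-40317257, + strand, and Il1rn at chr2:24336853-24351494, + strand (GRCm38). Il1rn was at 127, 631 and 21.5 (CD_CD), 319.9, 0 and 215 (WD_CD), 631, 2827 and 3751 (CD_WD) and 2402, 11475 and 2669 (WD_WD). It was listed at 0 in WD_CD replicate 2, and the lowest WD offspring value was only just above the CD offspring, 631.3 against 630.6 for the highest CD offspring value. The log2 fold change was 5.31 ± 1.29 (SE; limma adjusted p = 0.00664). Il1r1 was at 517, 225 and 158 (CD_CD), 132, 237 and 36.8 (WD_CD), 27.9, 31.4 and 67.1 (CD_WD) and 18, 50 and 23.8 (WD_WD). Only WD_CD replicate 3 among the CD offspring lay within the WD offspring, and the log2 fold change was -2.31 ± 0.59 (SE; limma adjusted p = 0.0088). The ratio of Il1rn to Il1r1, with 1 added to each, had a median of 1.33 in CD offspring (0.0042 to 5.73) and 97.6 in WD offspring (21.9 to 225). Its lowest value was in WD_CD replicate 2, where Il1rn had no reads and the added 1 set the ratio. Il1rap, the accessory chain of the receptor, ranged from 0 to 151 in CD offspring and from 23 to 189.6 in WD offspring and did not pass, with a log2 fold change of 1.07 ± 1.08 (SE; limma adjusted p = 0.458).

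Of 7 genes set with the shared gamma chain family, Il2rg, Il21r and Il7r rose and 4 did not pass in the average. Il2rg was at 1422, 1452 and 1304 (CD_CD), 1766, 1444 and 978 (WD_CD), 26532, 5057 and 5117 (CD_WD) and 4166, 4897 and 4751 (WD_WD). The value of CD_WD replicate 1 was far above the other WD offspring, which lay between 4166 and 5117, and all CD offspring were lower. The log2 fold change was 2.21 ± 0.37 (SE; limma adjusted p = 0.000715). Il21r, the interleukin 21 receptor of B, T and NK cells, was at 5.55, 6.95 and 77.1 (CD_CD), 76.8, 22.3 and 52.2 (WD_CD), 2725, 680 and 359.8 (CD_WD) and 1313, 525 and 934 (WD_WD). It too was highest in CD_WD replicate 1, the offspring groups did not overlap, and the log2 fold change was 5.01 ± 0.69 (SE; limma adjusted p = 0.000182). Il7r, the interleukin 7 receptor of lymphocytes, had 17.7, 79.7 and 66.1 (CD_CD), 483, 36.3 and 389.9 (WD_CD), 563, 669.6 and 432 (CD_WD) and 938, 1879 and 321 (WD_WD). WD_CD replicates 1 and 3 overlapped with the WD offspring, and the log2 fold change was 2.83 ± 0.66 (SE; limma adjusted p = 0.00546).

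The other 4 chains of this set did not pass. Il4ra, the interleukin 4 receptor chain, ranged from 427 to 822 in CD offspring and from 458 to 1194 in WD offspring, with a log2 fold change of 0.55 ± 0.29 (SE; limma adjusted p = 0.144). Under total-read scaling its direction turned and it passed as a fall (-0.86, limma adjusted p = 0.00887). Its gene lies 24 kb from Il21r on chromosome 7. The log2 fold change was 1.26 ± 1.01 (SE; limma adjusted p = 0.345) for Il2ra, the alpha chain of the interleukin 2 receptor. Il13ra1, which pairs with IL4RA, gave -0.65 ± 0.74 (SE; limma adjusted p = 0.515), and Il15ra, which presents interleukin 15, gave -0.69 ± 0.77 (SE; limma adjusted p = 0.505). The 95% intervals reached -0.92 to 3.45, -2.27 to 0.96 and -2.36 to 0.97, in that order.

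In the interleukin 10 family, Il10ra and Il10rb rose and Il20rb fell. Il10ra, the chain specific to interleukin 10, was at 111, 94.4 and 115 (CD_CD), 296, 53 and 88.9 (WD_CD), 482, 460.3 and 563 (CD_WD) and 555, 529 and 479 (WD_WD). The 6 WD offspring libraries lay within a narrow band, all above the CD offspring, and the log2 fold change was 2.21 ± 0.38 (SE; limma adjusted p = 0.000863). Il10rb, the chain shared with other receptors, was at 706, 622 and 529 (CD_CD), 1209, 543 and 353 (WD_CD), 631, 1601 and 1753 (CD_WD) and 1929, 2827 and 1235 (WD_WD). The offspring overlapped and the log2 fold change was 1.30 ± 0.36 (SE; limma adjusted p = 0.013), which turned to -0.12 under total-read scaling. Il20rb, a chain of receptors for interleukins of the IL-20 group, was at 180.1, 155 and 103 (CD_CD), 252, 212 and 101 (WD_CD), 17.7, 69 and 61.1 (CD_WD) and 74.5, 3.03 and 3.96 (WD_WD). Every WD offspring library was below every CD offspring library, and the log2 fold change was -2.83 ± 0.76 (SE; limma adjusted p = 0.0111).

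The interleukin 17 receptor chains IL17RA and IL17RC form a complex for interleukin 17A, and their genes moved in opposite directions. Il17ra lies at chr6:120463247-120487559, + strand, and Il17rc at chr6:113471427-113483140, + strand (GRCm38). Il17ra was at 40.9, 28.6 and 132 (CD_CD), 45.4, 165 and 145 (WD_CD), 1762, 1067 and 704 (CD_WD) and 886, 1198 and 1172 (WD_WD). No CD offspring library reached the WD offspring, and the log2 fold change was 3.85 ± 0.45 (SE; limma adjusted p = 6.48e-05). Il17rc was at 280.3, 514 and 214 (CD_CD), 258, 363 and 507 (WD_CD), 33, 201 and 102 (CD_WD) and 113, 27.3 and 107 (WD_WD). Here no WD offspring library reached the CD offspring, and the log2 fold change was -2.10 ± 0.52 (SE; limma adjusted p = 0.00768). The median was 3.76 over the pan-leukocyte and -2.79 over the endothelial markers, and a change within a cell type was not tested. The ratio of Il17ra to Il17rc was 0.233 at the median of CD offspring (0.0575 to 0.617) and 9.33 in WD offspring (5.29 to 51.9).

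No gene of the interleukin 6 and 12 family or of the interleukin 3 receptor passed. Il6ra, the interleukin 6 receptor, was at 207, 128 and 171 (CD_CD), 205, 129 and 16.7 (WD_CD), 370.2, 318 and 214 (CD_WD) and 229, 312 and 364 (WD_WD). The groups did not overlap, but the log2 fold change of 1.37 ± 0.53 (SE; limma adjusted p = 0.0571) missed the threshold. It passed without WD_CD replicate 1 (1.72, adjusted p = 0.0186), and under total-read scaling it was -0.028. Il11ra1, for interleukin 11, gave -0.14 ± 0.63 (SE; limma adjusted p = 0.879) and its exons overlap Ccl27a. Il27ra, for interleukin 27, gave -0.22 ± 0.71 (SE; limma adjusted p = 0.829), and Il3ra, for interleukin 3, gave 0.25 ± 0.44 (SE; limma adjusted p = 0.682).

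**Figure D4:**
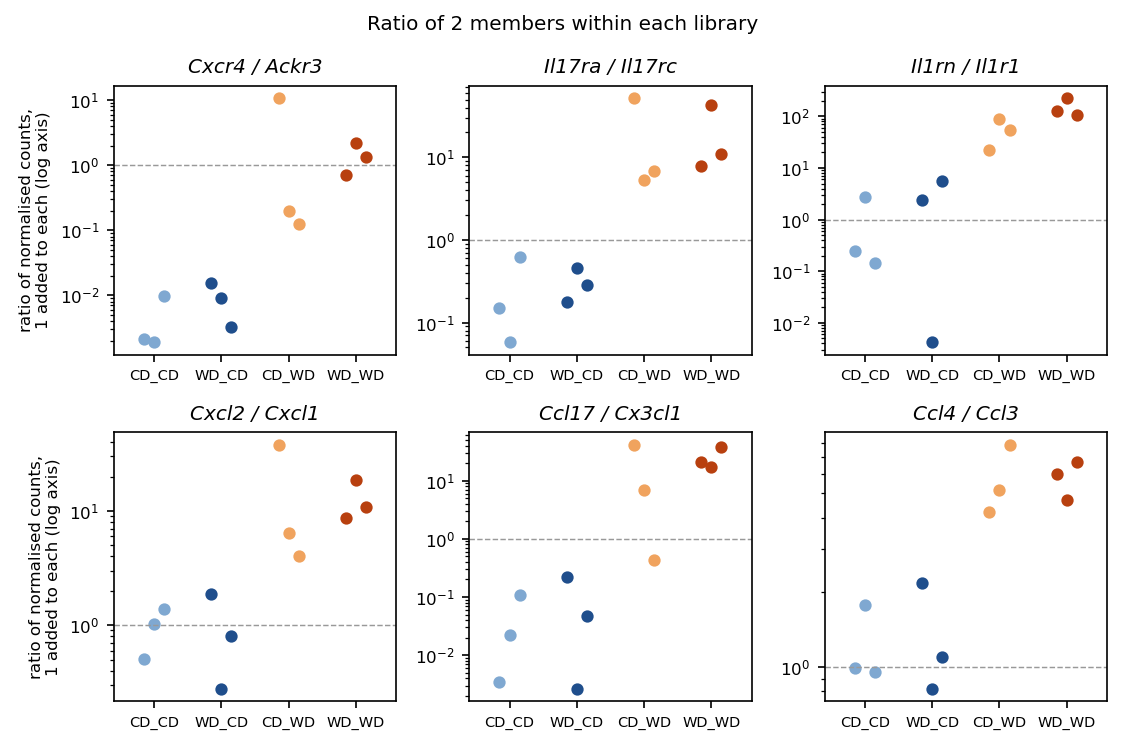
Ratios of normalised counts (each with 1 added, log scale) for pairs of members in the 12 libraries, 1 point per library. The ratios of Cxcr4 to Ackr3, Il17ra to Il17rc, Cxcl2 to Cxcl1, Il1rn to Il1r1, Ccl17 to Cx3cl1 and Ccl4 to Ccl3 do not overlap between the 6 CD and the 6 WD offspring libraries.

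The pairs were chosen with the members' values known, so their ratios describe these libraries and carry no test. A ratio within a library hardly depends on the scaling between libraries, but it also does not say which cells hold either transcript. Of 2 further pairs that overlapped, the ratio of Il10ra to Il10rb was 0.0993 to 0.254 in the CD and 0.188 to 0.763 in the WD offspring. That of Cxcl10 to Cxcl9 was 0.824 to 287, its top being the WD_CD library with no Cxcl9 reads, and 6.48 to 31.9. As a whole the 49 genes took 0.257% to 0.543% of a CD offspring library's reads and 0.371% to 1.90% of a WD offspring library's.

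Members and blood cell markers rose together. With each library's log2 values centred on the mean of the 8 pan-leukocyte genes, 2 members were higher in the average (Ccl4 and Ccl17; 0.441% of all genes) and 26 were lower (89.2% of all genes). With CD mothers, Ccl4 alone was higher (0.150%) and 21 were lower (86.5%), and with WD mothers, Ccl4, Ccl17 and Cxcr5 were higher (0.413%) and 16 lower (73.0%). With the values centred on the 12 endothelial genes, 39 members were higher in the average (67.7% of all genes) and none lower (0.235%). With CD mothers 34 were higher (48.5%) and none lower (0.0375%), and with WD mothers 34 were higher (39.1%) and none lower (0.178%). These settings were chosen after the data were seen, and neither gene set is a neutral reference here since both changed. CD_WD replicate 1 was the highest of the 6 WD offspring libraries in 10 members (Ccr7, Ccr8, Cxcr5, Cxcr6, Il2rg, Il4ra, Il6ra, Il17ra, Il21r and Il27ra) and the lowest in 20, among them Ccl3, Ccl4, Ccl6, Ccl7, Ccl9, Ccr1 and Ccr2. In CD offspring, WD_CD replicate 1 was the highest in 24 members and had the highest pan-leukocyte sum (16982), while WD_CD replicate 2 was the lowest in 15. The macrophage and monocyte sums of WD_CD replicates 1, 2 and 3 were 121153, 11512.5 and 51171.5, against 22298 to 36291 in CD_CD. In WD_CD replicate 1 this sum was above that of the endothelial genes (52616.5). Without CD_WD replicate 1 and WD_CD replicate 3 together, 7 members fell with WD mothers in place of 3, and the share of all genes is not given here.

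Some calls made with 1 mother's diet alone rested on single libraries. With CD mothers these were as follows. Without CD_CD replicate 1 they were Ccl12, Ccl17, Ccr1, Cxcr5, Il1r1, Il7r and Il10ra, and without CD_CD replicate 2 they were Ccl12, Ccr7, Cxcr5, Il1r1 and Il10ra. Leaving out CD_CD replicate 3 ended those of Ccl12 and Il1r1, and CD_WD replicate 1 those of Ccl17, Cxcr5 and Il1r1. The library CD_WD replicate 2 was needed for Ccl12, Ccl17, Ccr1, Cxcr5, Il1r1 and Il7r, and CD_WD replicate 3 for Ccl12 and Cxcr5. The limma adjusted p of these lost calls ran from 0.0507 to 0.184. With WD mothers, Ackr3 was lost without each of the 6 libraries in turn and Ccl22 and Il2rg without each but WD_CD replicate 1. Il10rb was lost without WD_CD replicate 2 or 3 or WD_WD replicate 1 or 2, and Il20rb without WD_CD replicate 1 or 2 or WD_WD replicate 2 or 3. Ccr1 was lost without WD_CD replicate 2 or WD_WD replicate 2 or 3, Cx3cr1 without WD_CD replicate 2 or WD_WD replicate 1 or 3, and Cxcl16 without WD_CD replicate 2 or WD_WD replicate 1 or 2. Il17rc was lost without WD_CD replicate 2 or 3 or WD_WD replicate 2, Ccl9 without WD_CD replicate 2 or WD_WD replicate 2, Il1rn without WD_WD replicate 2 and Ccr7 without WD_CD replicate 3. There the adjusted p ran from 0.0531 to 0.133.

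The mother's diet was compared within each offspring diet, which is the comparison that the series title raises. By limma, no member passed in CD offspring, in WD offspring or in the interaction, and 0% of all genes did. At an unadjusted p under 0.05, limma gave 2 members in CD offspring, 0 in WD offspring and 1 in the interaction, and 276, 628 and 342 of all 10655 genes. edgeR and DESeq2 on the recovered reads called none of the members. In the authors' deposited table, Cxcr5 had an adjusted p under 0.05 in CD offspring, as a fall (0.103% of all genes). No member rose there (0.0188%), and none rose (0.113%) or fell (0.225%) in WD offspring in that table. The median log2 fold change over the 49 was 0.21 in CD offspring (-0.05 over all genes), 0.24 in WD offspring (-0.03) and 0.10 in the interaction (0.02). In simulated data of this design, the comparison in WD offspring recovered 64% of 16-fold and 12% of 4-fold changes, with 6 false calls. Changes of the smaller size were thus mostly not detected there. The simulation gave each gene 1 mean over all libraries apart from the planted changes. It held no difference in offspring diet or cell types, so detection in the real libraries may differ.

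In CD offspring, the members with the smallest p were Cxcr5, Il7r and Cxcr4. Cxcr5 was lower in the 3 WD_CD libraries (0.848, 7.97 and 1.34) than in the 3 CD_CD libraries (12.1, 14.3 and 129). The log2 difference was -3.13 ± 1.05 (SE; limma adjusted p = 0.9998). In WD_CD replicates 1, 2 and 3, 1 read equalled 0.424, 0.398 and 0.669 normalised counts, so these Cxcr5 values rest on few reads. CD_CD replicate 3, with the highest Cxcr5 value of the CD offspring, also had their highest B cell sum (3391). Il7r had a difference of 2.04 ± 0.94 (SE; limma adjusted p = 0.9998) and Cxcr4 of 1.38 ± 0.81 (SE; limma adjusted p = 0.9998), both with overlap. In the authors' deposited table the log2 fold change of Cxcr5 in this comparison was -3.91, with an adjusted p of 0.0484, and that of Il7r was 2.48, with an adjusted p of 0.327. DESeq2 on the recovered reads gave Cxcr5 -3.91 with an adjusted p of 0.114, and edgeR gave -3.85 (adjusted p = 0.9997). Without overlap, Ccl11 and Cxcl12 were higher in WD_CD (4.00% of all genes), and Cxcr5 was lower (4.87%). The 95% interval of the difference was -1.60 to 3.57 for Ccl4 and -1.88 to 2.31 for Ackr3.

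In WD offspring, the smallest p were those of Cxcl16, Ccl11 and Il2rg. Cxcl16 was at 563, 2860.3 and 4418 (CD_WD) and 5643, 6857 and 3373 (WD_WD), with a log2 difference of 1.40 ± 0.66 (SE; limma adjusted p = 0.836). For Ccl11 it was -2.77 ± 1.37 (SE; limma adjusted p = 0.855), where WD_WD replicate 2 was the lowest library. Il2rg was lower in each WD_WD library than in each CD_WD library, with -0.94 ± 0.53 (SE; limma adjusted p = 0.863). CD_WD replicate 1 stood at 26532, while CD_WD replicates 2 and 3 (5057 and 5117) were only slightly above WD_WD (4166, 4897 and 4751). Il2rg was the only member without overlap in this direction (4.16% of all genes), while none was in the other (5.86%). In the interaction the smallest p were those of Cxcr5, at 3.22 ± 1.48 (SE; limma adjusted p = 0.997), Ccl11, at -3.92 ± 1.94 (SE; limma adjusted p = 0.997), and Cxcl9, at 3.19 ± 2.10 (SE; limma adjusted p = 0.997). The 95% interval of the interaction was -3.86 to 3.45 for Ccl4, -1.54 to 2.67 for Cxcl2 and -3.29 to 2.64 for Ackr3.

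Other genes of the same pathways were counted by lists in the average of WD against CD offspring, where 20.1% of all genes rose and 17.6% fell. Of 14 interleukins and other ligands in the table, 9 rose and none fell. They included Il1b and Il1a, the ligands of IL1R1, with log2 fold changes of 6.37 ± 0.81 and 8.09 ± 1.30 (limma adjusted p = 0.000109 and 0.00053), and Mif, a chemokine-like cytokine, with 3.66 ± 0.40 (adjusted p = 4.49e-05). Of 12 shared or related receptor chains 5 rose and 3 fell. Ccrl2, an atypical receptor of chemerin, gave 3.03 ± 0.45 (adjusted p = 0.000311) and Csf2ra, the GM-CSF receptor chain, 3.14 ± 0.49 (adjusted p = 0.000415). Il6st, the gp130 chain with which IL6RA and IL11RA1 signal, gave -1.99 ± 0.33 (adjusted p = 0.0006), and Lifr, another partner of gp130, -3.29 ± 0.43 (adjusted p = 0.000131).

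Below the receptors, 10 of 24 genes of chemokine receptor signalling rose and 5 fell, with Rgs1 and Rgs2, regulators that shorten G protein signals, at 5.28 ± 0.68 and 3.95 ± 0.48 (limma adjusted p = 0.000112 and 8.07e-05). Of 18 Janus kinase and STAT genes 4 rose and 1 fell. Ptpn6, a phosphatase of blood cells, stood at 3.28 ± 0.49 (adjusted p = 0.000334) and Stat4, a transcription factor of interleukin 12 signalling, at 4.77 ± 0.92 (adjusted p = 0.00175), and Socs5, a feedback inhibitor, was the 1 that fell. Of 11 adaptors of the interleukin 1 receptor 1 rose (Irak2) and 1 fell (Tab2). Of 11 enzymes and proteoglycans that cut or present chemokines 2 rose and 5 fell. Adam10, the protease that sheds CX3CL1 and CXCL16 from the membrane, gave -2.06 ± 0.26 (adjusted p = 9.66e-05), and Dpp4, which trims the ends of several chemokines, gave 4.0 ± 0.80 (adjusted p = 0.00218). The median log2 fold changes of these lists ran from -0.06 (Janus kinase and STAT genes) to 2.37 (interleukins and other ligands), against -0.02 over all genes.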

How the data were processed

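The authors deposited a table that gives each gene 1 normalised signal in each library. Per the submitters' processing notes, the tools were HISAT2 2.2.1 and featureCounts 2.0.1 on GRCm38 (mm10), Trim Galore 0.6.10, FastQC 0.12.1, DESeq2 and SAMtools 1.13. Their order and settings, strand and the treatment of reads that match several genes were not given in the sources used here. All 127860 values were whole multiples of the value of 1 read (tolerance 0.01), so each is a read count divided by a size factor. In CD_CD replicate 3 the lowest value equals 3 reads. The deposited log2 fold changes, p-values and adjusted p-values of the authors' table cover both comparisons of the mother's diet.

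Values were put on a log2 scale after adding a pseudocount of 1, which understates the change of low genes. They were fitted over all 10655 genes with limma 3.58.1 (R 4.3.3; mean-variance trend, 12 libraries, 1 mean per group, 8 residual degrees of freedom). Tests were two-sided, with Benjamini-Hochberg adjustment over all genes and a threshold of 0.05. Contrasts numbered 6: the mother's diet in each offspring diet, the offspring's diet with each mother's diet and on average, and the interaction. edgeR 4.0.16 and DESeq2 1.42.0 on the recovered reads, other pseudocounts (0.5 and 8), a filter at a mean of 50, TMM and total-read scaling, array weights, fits of 2 groups only, a replicate block and single libraries left out were alternatives.

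All members entered the fits and counts, and 1 member and 1 gene of a pathway list are not reported here by name or in the plots. The rule for values by library took up to 10 members with the largest rise and 8 with the largest fall among those past the threshold in each offspring comparison. It also took the 3 with the smallest p where none passed, and ligand and receptor pairs. Some members outside this rule, such as Cxcl1 and Il6ra, were given by library as well. Up to 4 genes per pathway list could be named, by smallest p. Members and lists were chosen with earlier results of these data known. Gene positions and exon lengths came from GENCODE vM21 (GRCm38), and promoter windows from RefSeq (GRCm38.p6). The fit was tested on simulated counts for the same genes: with CD mothers it recovered 62% of 100 changes of 16-fold and 16% of 100 changes of 4-fold, with 2 false calls. Other assays that the series text names were not analysed here.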

Additional observations from a re-analysis of the deposited data

How the results depend on the processing

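Counts of members that passed moved by more than 1.5 times in these cases. With CD mothers, the 17 rises became 11 under total-read scaling, 27 with array weights, 1 centred on pan-leukocyte genes and 34 centred on endothelial genes, and ran from 11 to 18 with single libraries left out. The 1 fall became 6, 2, 21 and 0 in the same order, 0 without the 2 libraries that stood apart, and ran from 0 to 2 with single libraries left out. With WD mothers, the 22 rises became 13 under total-read scaling, 3 centred on pan-leukocyte genes and 34 on endothelial genes, and ran from 14 to 24 with single libraries left out. The 3 falls became 5 in DESeq2, 7 under total-read scaling, 16 and 0 with the 2 centrings, 7 without the 2 libraries that stood apart, and ran from 0 to 2 with single libraries left out. In the average, the 26 rises became 16 under total-read scaling, 2 centred on pan-leukocyte and 39 on endothelial genes, and the 5 falls became 12, 26 and 0. Under total-read scaling the average log2 fold change changed sign for Cxcl1 (-0.60), Il4ra (-0.86), Il6ra (-0.028) and Il10rb (-0.12), of which Il4ra passed, as a fall. The cause of these moves was not tested, beyond the shift of all genes by the scaling. The centrings and the removal of 2 libraries were chosen after the data were seen. Shares of all genes are not given here for array weights, DESeq2, the replicate block or libraries left out. Whether those moves concern the members in particular cannot be told. For the mother's diet and the interaction, 0 members passed under every alternative run, whereas the authors' deposited table gives Cxcr5 an adjusted p of 0.0484 for the mother's diet in CD offspring. Same-numbered replicates of different groups did not deviate together: the correlation of their deviations was -0.23 to 0.07 over 18 pairs, and none was above 0.1. With the replicate number as a block, 15 members rose and 0 fell with CD mothers. The counts were 21 and 2 with WD mothers, and 25 and 5 in the average. The labels do not state whether the numbers mark a shared litter, day or batch, and these correlations cannot exclude it. The block counts therefore say nothing of weaker effects. Depth limits the low members: 1 read equals up to 3.96 normalised counts, so zeros and small values in WD_WD replicate 3 rest on few reads.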
